A study of Mus musculus with 47 samples.

Results

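The sarcomeric myosin heavy chain family of the mouse was followed here through its 9 genes Myh1, Myh2, Myh3, Myh4, Myh6, Myh7, Myh7b, Myh8 and Myh13, taken by symbol from the 24421 genes in the count tables. The samples were 47 single muscle fibres of the extensor digitorum longus (EDL), a fast muscle of the lower leg, from FVB/N mice aged 2 to 3 months. Of these, 27 fibres were wild type (WT) and 20 came from C2KO mice, which lack fast myosin binding protein C because a stretch of Mybpc2 exons was replaced by a Neo cassette between LoxP sites. The labels give 3 WT and 2 C2KO mice and tie no fibre to a mouse. Fibres of one muscle are not replicates of a genotype, so genotypes were compared over 5 pools of summed counts: WT pools 1, 2 and 3 (sequencing runs 2868, 2869 and 0092, with 10, 10 and 7 fibres), and C2KO pools 740 and 2445 (the prefixes of the fibre names, 10 fibres each). Y-linked and Xist counts marked different fibres in each WT pool, which therefore mixes more than 1 mouse, and p-values over pools measure the spread between these pools only, which may be technical.

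A sarcomeric myosin is a hexamer of 2 heavy chains and their light chains. The heavy chain carries the motor domain, which binds actin and splits ATP, and a long tail that packs into the thick filament, where myosin binding protein C also sits. Which heavy chain a fibre makes largely sets how fast it shortens, and it is the usual basis for naming fibre types. Adult fast fibres express Myh4 (type IIb, the fastest), Myh1 (type IIx) or Myh2 (type IIa). Myh3 is the embryonic and Myh8 the perinatal skeletal chain, both of which adult limb fibres normally replace. Myh13 is best known from extraocular and laryngeal muscle. Myh7 is the chain of slow fibres and of the cardiac ventricle, Myh6 is its cardiac alpha partner, and Myh7b is an older branch of the family with low levels in striated muscle.

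The 6 skeletal genes lie head to tail on the plus strand of chromosome 11 in the order Myh3, Myh2, Myh1, Myh4, Myh8 and Myh13 (mm10, chr11:67078300-67371502), a cluster of 293.2 kb. Myh4 occupies chr11:67237812-67260447, between Myh1 at chr11:67200114-67224575 and Myh8 at chr11:67277124-67308633, and Myh2 lies at chr11:67171027-67197517. Myh6 and Myh7 are neighbours on the minus strand of chromosome 14 (chr14:54941921-54966607 and chr14:54970688-54994549), and Myh7b is on chromosome 2 (chr2:155611243-155634307). These coordinates come from the count tables and span all exons of each gene.

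The sequences just upstream of the 4 members that had at least 557 counts in every fibre are shown. Those genes sit side by side in the cluster, yet Myh4 stood far above Myh1, Myh2 and Myh8 in level. Each line holds the 250 bases before the RefSeq start (GRCm38, plus strand), with capitals for the longest run that all 4 share and for TATAAA on the printed strand.
Myh4, chr11:67237562-67237811: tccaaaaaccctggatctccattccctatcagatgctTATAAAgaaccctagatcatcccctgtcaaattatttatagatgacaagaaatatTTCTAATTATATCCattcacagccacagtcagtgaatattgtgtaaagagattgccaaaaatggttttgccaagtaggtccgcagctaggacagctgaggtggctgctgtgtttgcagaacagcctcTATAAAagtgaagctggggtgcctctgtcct
Myh1, chr11:67199852-67200101: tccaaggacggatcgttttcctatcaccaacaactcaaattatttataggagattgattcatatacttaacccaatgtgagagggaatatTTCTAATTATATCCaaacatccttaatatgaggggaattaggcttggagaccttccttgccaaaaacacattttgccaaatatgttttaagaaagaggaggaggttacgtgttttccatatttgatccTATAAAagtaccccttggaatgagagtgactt
Myh2, chr11:67170777-67171026: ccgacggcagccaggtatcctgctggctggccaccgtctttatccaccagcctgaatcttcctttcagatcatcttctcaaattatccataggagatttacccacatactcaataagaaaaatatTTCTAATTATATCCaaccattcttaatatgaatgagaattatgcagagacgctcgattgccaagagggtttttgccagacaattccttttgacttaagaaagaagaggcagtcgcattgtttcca
Myh8, chr11:67276874-67277123: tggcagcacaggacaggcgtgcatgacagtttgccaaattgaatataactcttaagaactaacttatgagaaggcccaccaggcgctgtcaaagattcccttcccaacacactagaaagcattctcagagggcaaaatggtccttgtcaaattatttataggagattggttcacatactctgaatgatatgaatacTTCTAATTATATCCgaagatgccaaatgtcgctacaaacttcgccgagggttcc

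The shared run, TTCTAATTATATCC, is 14 bases long and was found in 4 of the 32851 upstream windows of RefSeq starts on either strand, those of these 4 genes. It begins at -158 in Myh4, -160 in Myh1, -125 in Myh2 and -54 in Myh8. TATAAA stood at -31 in Myh4 and -32 in Myh1, with a further copy at -213 in Myh4. It was not in the printed strand of the Myh2 and Myh8 windows. In those 2 genes the shared run begins nearer the annotated start. Their windows end before the distance at which TATAAA follows the run in Myh4 and Myh1, so they could not show a copy there. A match to the MEF2 site, the recognition sequence of the MEF2 muscle transcription factors, was found once in each of Myh4 (-182), Myh1 (-211) and Myh8 (-99), in the same 10 letters TTATTTATAG, which also contain TATAAA read on the other strand. Over all windows and both strands, 2.92% held a MEF2 match and 12.4% held TATAAA. Of the 4 genes, Myh4 was the only one with a CArG box (at -104, in 1.47% of all windows), the site of serum response factor. Myh4 and Myh8 held E-boxes (CANNTG, in 66.2% of all windows), Myh4 and Myh1 an MCAT element (CATTCC, 12.6%), and no window of the 4 held MEF3 (TCAGGTT, 3.49%). The Myh2 window held no match to any of these 6 motifs. These matches describe the letters in the windows and were not tested for function.

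The members are close enough in sequence that reads can fit more than 1 of them. Over the coding sequence Myh1 was 91.12% identical to Myh2 and 90.25% to Myh4, and Myh4 was 88.22% identical to Myh2 and 88.06% to Myh8. The embryonic Myh3 and the extraocular Myh13 stood further off, at 80.77% and 79.85% identity to Myh4, and the slow Myh7 and Myh7b at 77.79% and 70.06%. The Myh4 transcript shared 133 windows of 100 bases with Myh1, 71 with Myh2, 87 with Myh8 and 0 with Myh3, Myh13, Myh6, Myh7 and Myh7b. The authors left out reads that map to several places. Counts of Myh1, Myh2 and Myh8 remain uncertain beside a paralog as abundant as Myh4.

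Myh4 made up nearly the whole family in every fibre. Across WT fibres it was lowest at 28820, at the median 67300 and highest at 78140 counts per 1000000 gene counts (CPM). Across C2KO fibres the same values were 53670, 70090 and 84210 CPM. The ranges overlapped widely, and 1 WT fibre in pool 2 lay far below all others. On the TPM scale, the same unit after division by exon length, which makes genes comparable, the Myh4 median was 21460 in WT and 21710 in C2KO, the 10th and 11th highest of all genes. The 9 genes took between 2.899% and 7.892% of all counts in WT fibres and between 5.394% and 8.483% in C2KO fibres.

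**Figure D1:**
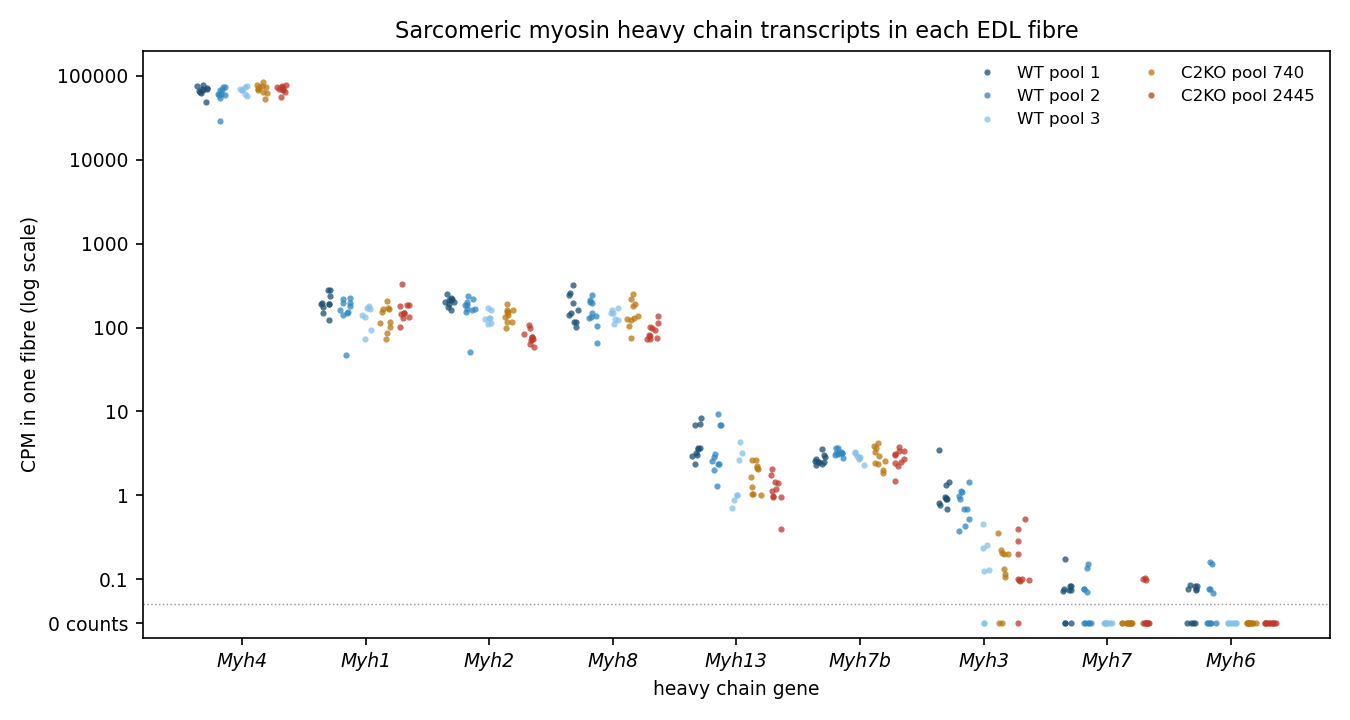
CPM on a log axis of each heavy chain gene in each of the 47 fibres, coloured by pool, with fibres without a count drawn below the dotted line. Myh4 lies between 28820 and 84210 CPM, Myh1, Myh2 and Myh8 between 47.36 and 333.6 CPM, and the remaining 5 genes below 10 CPM.

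Of the counts of the family, Myh4 held 99.01% at the lowest, 99.21% at the median and 99.5% at the highest in WT fibres, and 99.18%, 99.49% and 99.6% in C2KO fibres. The lowest share, in WT replicate 1, was 99.014% (95% Clopper-Pearson interval 98.995 to 99.032, counting error only), and the highest, in C2KO replicate 5, was 99.6% (99.585 to 99.614). The highest share of any other member was that of Myh1 in C2KO replicate 8, at 0.5197%.

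Myh1, Myh2 and Myh8 formed a second tier far below Myh4, with at most 5.237 Myh1, 3.264 Myh2 or 4.117 Myh8 counts per 1000 Myh4 counts in any fibre. Myh1, the IIx chain, ran from 47.36 through a median of 173.7 to 284.6 CPM in WT fibres and from 74.07 through 149.6 to 333.6 CPM in C2KO fibres. Myh2, the IIa chain, ran from 51.7 through 174 to 253.1 CPM in WT and from 58.47 through 103 to 190.7 CPM in C2KO. Myh8, the perinatal chain, ran from 66.16 through 148.1 to 321.7 CPM in WT and from 73.4 through 109.7 to 249.3 CPM in C2KO. All 3 genes had counts in all 47 fibres, and the genotypes overlapped for each. As TPM their WT medians were 57.41 for Myh1, 55.34 for Myh2 and 45.53 for Myh8. By these counts the perinatal chain stood beside the adult IIx and IIa chains rather than with the embryonic one. The same 3 genes are the members whose transcripts share windows of 100 bases with Myh4. Whether part of their counts came from Myh4 reads was not tested.

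The order within this tier varied from fibre to fibre. By TPM, Myh1 was among WT fibres the second chain after Myh4 in 11, Myh8 in 9 and Myh2 in 7, and among C2KO fibres Myh1 was second in 12, Myh8 in 5 and Myh2 in 3. Myh8 exceeded Myh2 in 11 of 27 WT fibres and in 15 of 20 C2KO fibres. The C2KO figure came from pool 2445, where Myh8 exceeded Myh2 in 10 of 10 fibres, while in pool 740 it did so in 5 of 10. In the WT pools these counts were 3 of 10, 4 of 10 and 4 of 7.

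The extraocular Myh13 and the ancient Myh7b came next, at a few CPM. Myh13 ran from 0.7111 through 3.016 to 9.261 CPM in WT fibres and from 0.3916 through 1.335 to 2.628 CPM in C2KO fibres, with at least 4 counts in each fibre. The highest WT fibres lay above every C2KO fibre, and the lower part of the WT range overlapped the C2KO range. Myh7b was even across fibres, from 2.288 through 2.95 to 3.708 CPM in WT and from 1.476 through 2.828 to 4.228 CPM in C2KO. Its exons share 31 bases on the opposite strand with Trpc4ap, which had 104055 counts over all fibres against 1488 for Myh7b, so without knowledge of the strandedness of the kit its counts are uncertain. By TPM, Myh13 exceeded Myh7b in 15 of 27 WT fibres, and Myh7b exceeded Myh13 in 18 of 20 C2KO fibres.

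Myh3, the embryonic chain, was at the limit of detection, taken as 3 counts in a library (0.205 to 0.392 CPM). It ran from 0 through 0.7696 to 3.447 CPM in WT fibres and from 0 through 0.1225 to 0.5154 CPM in C2KO fibres. Of 27 WT fibres 21 had more than 3 counts of Myh3, and of 20 C2KO fibres 2 did. Within WT, all 20 fibres of pools 1 and 2 were over that limit and 1 of 7 fibres of pool 3 was, so the split followed the run inside the WT group as well.

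The cardiac and slow genes Myh6 and Myh7 were at the background. Myh7 had 18 counts over the 47 libraries together and never more than 2 in a fibre, and Myh6 had 13 counts and never more than 2. In the C2KO libraries Myh6 had 0 counts, and the 3 counts that the limit allows in a library correspond to 0.285 to 0.392 CPM there. Exons of Myh7 overlap the antisense RNA gene Mhrt by 463 bases, and Mhrt had 21 counts in all. The other slow genes were equally scarce: Tnni1, Tnnt1, Tnnc1, Myl2 and Myl3, the slow troponins and light chains, had at most 8 counts in any fibre. Atp2a2, the calcium pump gene of slow and cardiac muscle, was the exception among the slow markers, at 4.67 to 35.11 CPM. By these markers the fibres were of the fast IIb kind, as their high Myh4 has it.

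**Figure D2:**
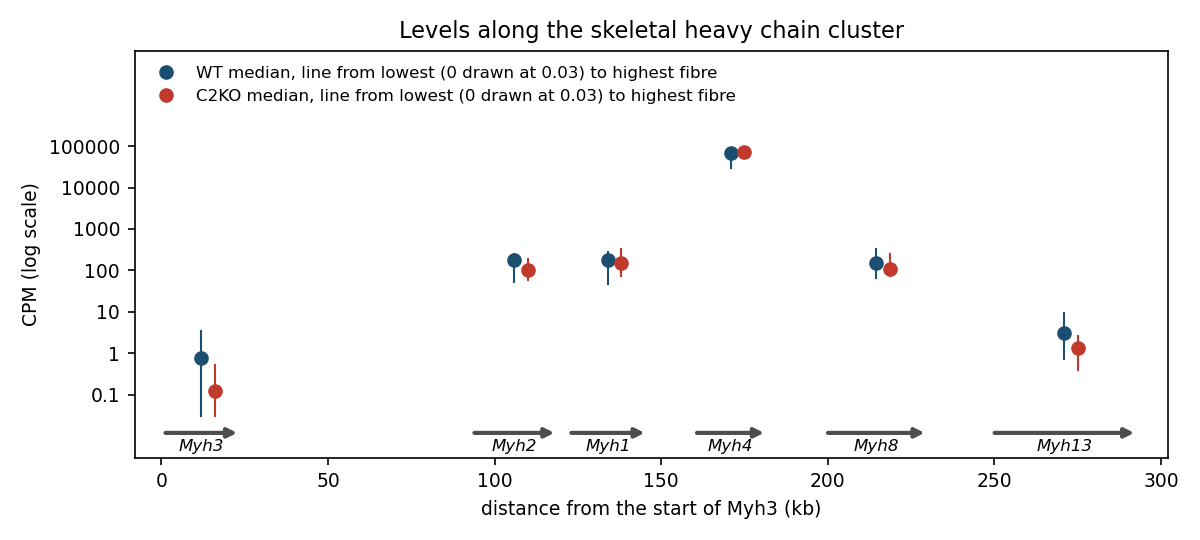
CPM on a log axis of the 6 clustered genes against distance from the start of Myh3 in kb, with arrows for the extent of each gene and lines from the lowest to the highest fibre. Levels peak at Myh4 and stand lowest at the ends, with WT medians of 0.7696 CPM for Myh3 and 3.016 CPM for Myh13.

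The comparison of C2KO with WT asked whether heavy chain levels within IIb fibres differed with loss of fast myosin binding protein C. This protein is a partner of the myosin heavy chain in the thick filament. Myh4 held at least 99.01% of the family's counts in all 47 fibres, so fibres of another type were not among them. In EDL sections of young C2KO mice the paper reports fewer type IIb and more type I and IIa fibres. A change in the proportions of fibre types could not be seen in the fibres compared here. The targeted gene was checked first. Mybpc2 ran from 6563 through 9479 to 11560 CPM in WT fibres and from 2.615 through 26.06 to 47.61 CPM in C2KO fibres, with no overlap (log2 fold change -8.55, SE 0.14, edgeR adjusted p = 6.39e-06).

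No member of the family passed the test. Among all 12863 genes tested 6 met both thresholds (adjusted p under 0.05, fold over 1.5), which is 0.0466%, with 0.0233% higher and 0.0233% lower in C2KO, and of the 7 heavy chain genes with enough counts to be tested 0 were called. At an unadjusted p under 0.05 stood 3 of the 7, Myh13, Myh3 and Myh2, all lower in C2KO, beside 10.3% of all genes in either direction and 4.13% in the lower direction. On the pools, limma-voom and DESeq2 also called 0 of the members. Myh6 and Myh7 had too few counts to be tested.

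Myh4 did not pass, and its interval was narrow. Scaled by the trimmed mean of M values (TMM), its CPM was 68270, 60900 and 66910 in the WT pools, 67810 in pool 740 and 73790 in pool 2445. The WT and C2KO pools overlapped. The log2 fold change was 0.12 (SE 0.093, edgeR adjusted p = 0.694), with a 95% confidence interval from -0.11 to 0.34. A fold of 1.5 in either direction lay outside this interval. Each WT pool mixes mice and the labels give only 3 WT mice, so the WT pools share mice. The intervals of this fit therefore cover the spread between these pools and do not bound the effect of genotype.

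Among the other adult fast chains, Myh1 stood at 203.3, 167.1 and 136.5 CPM in the WT pools and at 129.3 and 178.2 CPM in the C2KO pools (log2 fold change -0.14, SE 0.20, edgeR adjusted p = 0.853). Myh2 stood at 207.8, 174 and 133 CPM in the WT pools, while pool 740 had 136.9 and pool 2445 had 82.74 (log2 fold change -0.64, SE 0.26, edgeR adjusted p = 0.480, interval -1.28 to -0.01). WT pool 3 lay below pool 740, so the genotypes overlapped, and pool 2445 lay below all. Without pool 740 the Myh2 value was -1.05 and without pool 2445 it was -0.32, with edgeR adjusted p of 0.307 and 0.574.

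Of the developmental chains, Myh8 stood at 184.3, 159.4 and 139.9 CPM in the WT pools, while pool 740 had 146 and pool 2445 had 98.33 (log2 fold change -0.40, SE 0.20, edgeR adjusted p = 0.533). As with Myh2, only pool 2445 lay below the WT pools, and without it the value was -0.14. Myh3 stood at 1.206, 0.8144 and 0.1744 CPM in the WT pools and at 0.146 and 0.1987 CPM in the C2KO pools (log2 fold change -2.10, SE 0.83, edgeR adjusted p = 0.469). WT pool 3, with 10 Myh3 counts over its 7 fibres, lay between both C2KO pools, which had 14 and 19. Neither the perinatal nor the embryonic chain was higher in C2KO by this test.

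Myh13 was the member whose pools did not overlap. It stood at 4.533, 3.898 and 1.954 CPM in the WT pools and at 1.689 and 1.297 CPM in the C2KO pools (log2 fold change -1.22, SE 0.39, edgeR adjusted p = 0.432). Pools were separate for 27.6% of all genes tested, and in the lower direction for 14.5%, and for 1 of the 7 members. The gap between WT pool 3 and pool 740 was small beside the spread of the WT pools. For Myh7b the value was -0.01 (SE 0.19, edgeR adjusted p = 0.989). In sign, 6 of the 7 members were below 0, beside 50.1% of all genes.

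**Figure D3:**
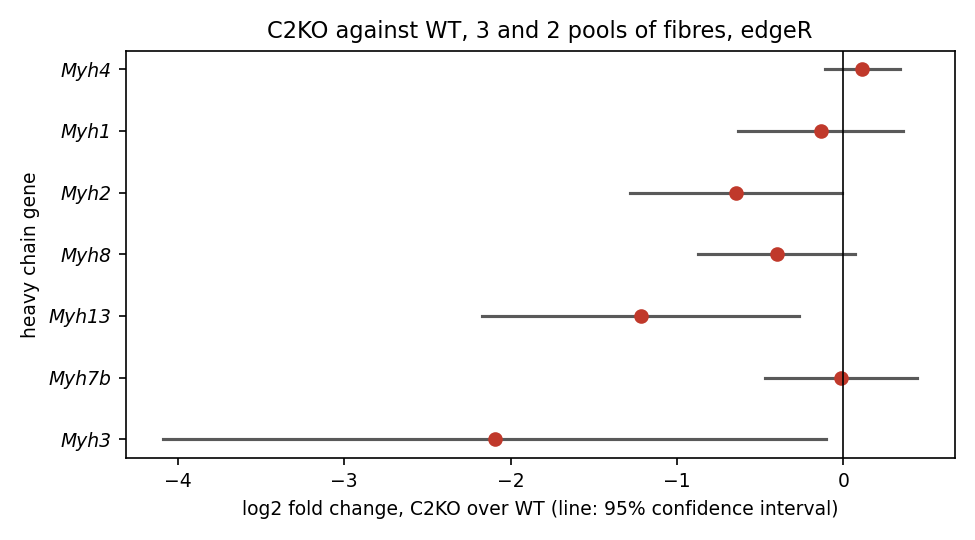
Log2 fold change of C2KO over WT for the 7 tested heavy chain genes from the edgeR fit on 5 pools, with 95% confidence intervals as lines. Myh4 sits at 0.12 with the narrowest interval, and Myh3 at -2.10 with the widest.

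As shares of the family, the composition was nearly fixed in both genotypes. Myh4 held 99.123%, 99.172% and 99.384% in the WT pools and 99.389% and 99.509% in the C2KO pools, 0.223 points higher in C2KO on average (99.2% ± 0.139, SD, n = 3 pools, against 99.4% ± 0.0851, SD, n = 2 pools, exact permutation p = 0.2, two-sided, smallest possible 0.1). The C2KO pools lay above the WT pools, with WT pool 3 and pool 740 almost level. The developmental chains Myh3 and Myh8 together held 0.246% ± 0.0332 of the WT pools (SD, n = 3) and 0.174% ± 0.0575 of the C2KO pools (SD, n = 2), and the pools overlapped (exact permutation p = 0.3). Myh8 made up nearly all of this class, with shares of 0.268%, 0.260% and 0.208% in the WT pools and 0.214% and 0.133% in the C2KO pools.

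The adult fast chains together held 99.7% ± 0.0354 of the WT pools (SD, n = 3) and 99.8% ± 0.0581 of the C2KO pools (SD, n = 2; exact permutation p = 0.3). The slow and cardiac chains held 0.00457% ± 0.000709 and 0.00409% ± 6.76e-05 (exact permutation p = 0.6), and this class was almost wholly Myh7b. The 9 genes and 4 classes gave no value below 0.2, and none below 0.4 after Benjamini-Hochberg adjustment within genes or within classes. With 5 pools the test could not reach 0.05 for any share.

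**Figure D4:**
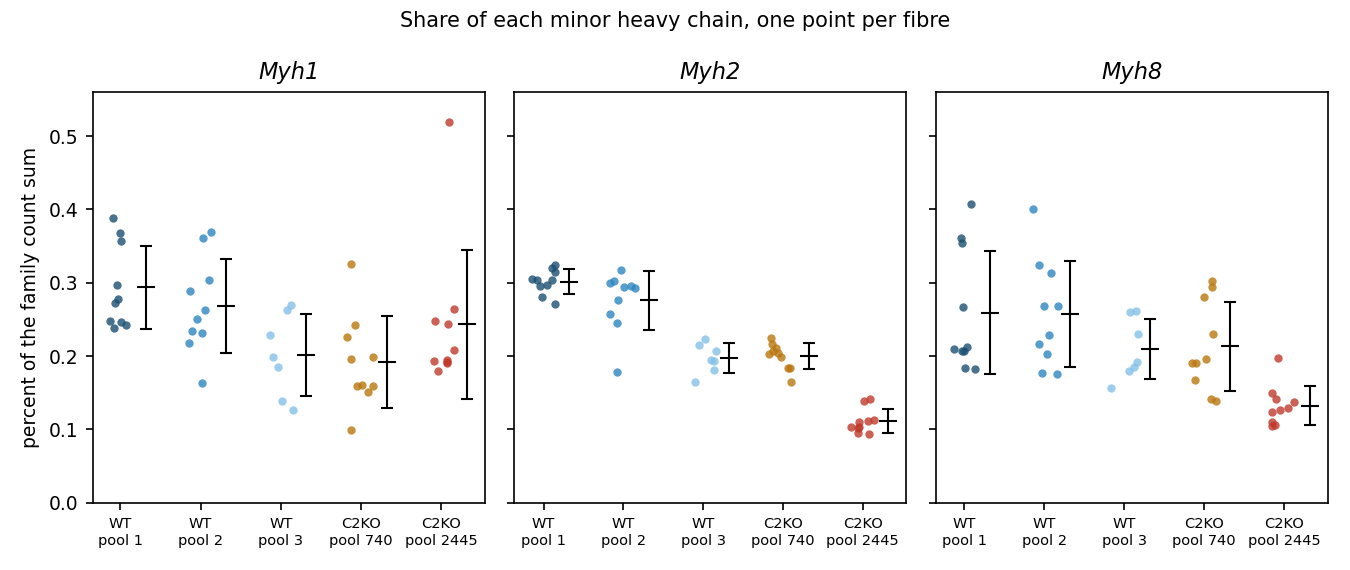
Share of the family's counts held by Myh1, Myh2 and Myh8 in each fibre by pool, in percent, with the mean and SD over the fibres of a pool in black. Myh2 has its highest pool medians in WT pools 1 and 2 (0.3033% and 0.2937%) and its lowest in C2KO pool 2445 (0.1068%), with 1 fibre of WT pool 2 down at 0.1783%.

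Run and genotype were nearly the same division of the libraries, and Myh3, Myh13 and Myh2 differed by run. All fibres of pool 2445 and 6 of pool 740 were sequenced in run 0299, 3 of pool 740 in run 0296 and 1 in run 0092, which also held the 7 fibres of WT pool 3. Median Myh3 was 0.9231 and 0.798 CPM in runs 2868 and 2869, 0.1291 CPM in run 0092, 0.2075 CPM in run 0296 and 0.1079 CPM in run 0299. Myh13 had medians of 3.621, 2.721, 1.033, 2.036 and 1.335 CPM in the same order, and Myh2 of 207.5, 176.3, 127.4, 140.6 and 91.09 CPM. Runs 2868 and 2869 were thus the high ones for all 3 genes, and they held WT fibres alone.

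Another count moved with the same runs. Fibres with Xist counts held 3 to 11 counts of Y-linked genes in run 2868 and 7 to 10 in run 2869, and 0 in runs 0092 and 0299. Myh6 and Myh7 followed this too: all 13 Myh6 counts and 15 of the 18 Myh7 counts were in WT pools 1 and 2. The part of these runs in the Myh3, Myh6, Myh7 and Myh13 counts was not tested.

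Within run 0092, the only run with both genotypes, the single C2KO fibre stood inside the WT range for most members. Its Myh3 was 0.1307 CPM, and the 7 WT fibres ranged over 0 to 0.4566 CPM. Myh13 was at 1.046 against 0.7111 to 4.376 CPM, Myh2 at 117.7 against 111 to 172.7 CPM, and Myh4 at 63440 against 57380 to 76850 CPM. Myh1 and Myh8 were above the WT fibres of that run, at 208.4 against at most 183.3 CPM and at 193.5 against at most 171.3 CPM, and Myh7b below them, at 1.83 against at least 2.288 CPM. In a fit of the 47 fibres with run as a further term, where this run alone carries the genotype difference, the log2 fold changes were -0.15 for Myh2, -0.34 for Myh3, -0.87 for Myh13, -0.61 for Myh7b, -0.05 for Myh4, 0.50 for Myh8 and 0.64 for Myh1, with edgeR adjusted p from 0.614 to 0.987. Genotype and run cannot be told apart for these genes in the other libraries.

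The C2KO pools also differed in sex-linked counts, since the fibres of pool 740 carried Y-linked counts throughout and those of pool 2445 Xist counts. Among WT pools split by kind, Myh2 was at 207.69 and 211.8 CPM in the Y-linked and Xist fibres of pool 1, at 175.36 and 173.5 CPM in those of pool 2, and at 131.24 and 134.03 CPM in those of pool 3. One WT fibre of pool 1 with over 10 counts of both was left out of this split. These summed values of the kinds stood close together inside each WT pool, while pool 2445 stood below pool 740. In WT pool 2 the Xist sum includes replicate 13, which was at 51.7 CPM of Myh2. The other Xist fibres there, at 217.7 and 239.1 CPM, lay above the 7 Y-linked fibres, at 154.8 to 201 CPM. The difference of the genotype effect between the kinds, Xist minus Y-linked, was -0.74 for Myh2 (SE 0.40, edgeR adjusted p = 0.718) and did not pass for any tested member. Here the C2KO side is 1 pool of each kind, so kind and pool cannot be told apart in it, and the kinds of a WT pool entered as separate samples although they share a run.

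Fibres of the same pool differed in the heavy chains by far more than counting error for the abundant members. The coefficient of variation within pools was 31.5% for Myh1, 31.2% for Myh8 and 20.1% for Myh2. These are 12.6, 11.7 and 7.35 times the counting error. Myh4 had the lowest coefficient of the members, 13.6%, which is 114 times its very small counting error of 0.12%. The same ratio was 2.48 for Myh13, and 1.14 and 1.02 for Myh3 and Myh7b. Averaged over the pools, the spread of Myh3 and Myh7b was thus about what counting gives, and most fibres could not be ranked by them. WT replicate 14 of pool 1 stood apart in Myh3, at 3.447 CPM with the nearest fibre at 1.448 CPM.

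Myh2 followed Myh4 from fibre to fibre more closely than Myh1 or Myh8 did. Within pools the Spearman correlation of Myh2 with Myh4 was 0.84 across the 27 WT fibres and 0.79 across the 20 C2KO fibres. For Myh1 with Myh4 it was 0.43 and 0.26, and for Myh8 with Myh4 0.48 and 0.52. These are descriptions across fibres that share mice, libraries of the same run and a common denominator.

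Expressed per 1000 Myh4 counts, Myh2 was at 2.727 to 3.264 in the fibres of WT pool 1, 1.794 to 3.193 in pool 2 and 1.653 to 2.247 in pool 3, and at 1.662 to 2.265 in C2KO pool 740 and 0.9371 to 1.429 in pool 2445. The fibres of pool 2445 lay below those of every other pool, and those of pool 740 spanned the same interval as WT pool 3. The ratio of Myh2 to Myh4 varied by 11.5% within pools, that of Myh1 to Myh4 by 30.1% and that of Myh8 to Myh4 by 26.4%, against a counting error of 2.65% to 2.82%. Whether part of the Myh2, Myh1 or Myh8 counts came from Myh4 reads was not tested, as only counts per gene were used.

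**Figure D5:**
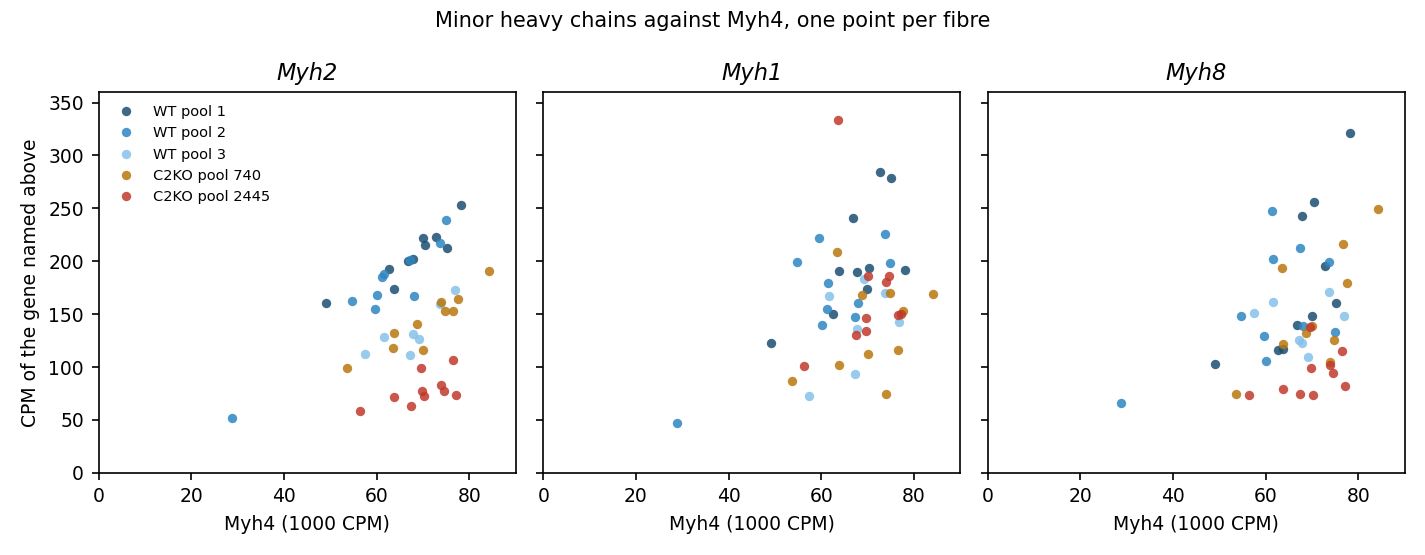
CPM of Myh2, Myh1 and Myh8 against Myh4 in units of 1000 CPM, 1 point per fibre, coloured by pool. In the Myh2 panel the points of pool 2445 lie lowest for their Myh4 and those of pool 740 run together with WT pool 3, and the WT fibre at 28820 CPM of Myh4 is low in all 3 panels.

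The genes whose CPM ran most like a member across the 27 WT fibres were sought among 5964 genes with a WT median of at least 10 CPM. For Myh2 these were Srl (Spearman 0.89 in WT and 0.81 in C2KO), which encodes the sarcoplasmic reticulum protein sarcalumenin, then Fyco1 (0.79 and 0.85), Col22a1 (0.78 and 0.37), the DNA methyltransferase gene Dnmt3a (0.78 and 0.82) and Myom1 (0.77 and 0.33), which encodes the M-band protein myomesin. For Myh4 they were Igf2r, Dido1, Kdm5c, Sel1l3 and Mast2, at 0.74 to 0.78 in WT and 0.06 to 0.48 in C2KO. For Myh1 they were Acox3, Kif13a, 4931406P16Rik, Phrf1 and Zfp523, at 0.63 to 0.73 in WT and 0.11 to 0.54 in C2KO. The WT value of each pair is raised by the choice, while the C2KO value was not used in it. Differences between pools enter both values. Within WT pools the correlation with Myh2 was 0.82 for Srl, 0.74 for Fyco1, 0.72 for Myom1, 0.50 for Col22a1 and 0.43 for Dnmt3a.

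Genes that work with the heavy chains were read from the same fit. Of the thick filament and M-band partners 14 of 18 could be tested, with 0 higher and 1 lower in C2KO, the deleted Mybpc2, and a median log2 fold change of -0.05 beside 0 over all genes tested. Mybph, a relative of myosin binding protein C, had the highest value of the abundant ones, 0.34 (SE 0.54, edgeR adjusted p = 0.863). The fast-fibre partners, which include the fast light chains, troponins, Actn3 and the calcium pump Atp2a1, had 0 of 10 called in either direction and a median of 0.07, between Atp2a1 at -0.16 and the light chain gene Myl1 at 0.23. Of the slow-fibre partners 3 of 9 could be tested and 0 were called.

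Among 14 genes of myosin folding, assembly and turnover, such as the chaperone Unc45b, 0 were called, with a median of 0.08. Among those with at least 10 CPM, the ubiquitin ligase gene Trim63, whose product MuRF1 targets myosin heavy chain for degradation, stood highest at 0.90 (SE 0.21, edgeR adjusted p = 0.395), and its relative Trim55 lowest at -0.29. Of 33 regulators of fibre-type myosin choice 32 were tested and 0 called, with a median of -0.01. The highest value was that of the myogenic factor gene Myod1, at 1.20 (SE 0.32, edgeR adjusted p = 0.412).

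Developmental genes other than the heavy chains were set beside Myh3 and Myh8. Of 12 such genes 10 were tested, with 1 higher in C2KO and 0 lower, and a median of 0.15. The gene that rose was Actc1, the cardiac alpha-actin that immature skeletal muscle also uses, at 288.4, 278.9 and 395 CPM in the WT pools and 1976 and 2263 CPM in the C2KO pools (a log2 difference of 2.72, SE 0.17, edgeR adjusted p = 0.016). Without WT pool 1 or WT pool 2, which leaves 2 WT pools, its value was 2.65 and 2.63 and no longer passed (edgeR adjusted p of 0.0971 and 0.222). It also missed the threshold without the WT fibre lowest in Myh4, an alternative chosen after seeing the data (2.87, edgeR adjusted p = 0.0728), and with sex-linked kind in the fit (3.85, edgeR adjusted p = 0.172). Inside the WT pools the median of Actc1 was lower in fibres with Y-linked counts than in those with Xist counts, at 95.5 against 298 CPM in pool 1, 26.7 against 708 CPM in pool 2 and 5.43 against 802 CPM in pool 3. The ranges of the kinds overlapped in pool 1 and not in pools 2 and 3, and the part of the kinds in the Actc1 difference was not tested further. With run in the fit over fibres, where the genotype rests on 1 C2KO fibre, the value was 0.49 (SE 1.82). The lowest of the abundant ones was Ncam1, the neural cell adhesion molecule, at -0.39. Actc1 and the perinatal Myh8, at -0.40, lay on opposite sides of 0.

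Of the non-sarcomeric heavy chains, which serve the cytoskeleton and smooth muscle, Myh14 was the one with at least 10 CPM, at 11.73 through 38.38 to 55.92 CPM in WT fibres and 18.06 through 30.29 to 40.98 CPM in C2KO fibres (log2 fold change -0.27, SE 0.11, edgeR adjusted p = 0.476). The smooth muscle Myh11 reached 62 counts in a C2KO fibre and at most 6 in WT.

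Markers of other cell types differed between pools. The summed CPM of 7 fibroblast genes had medians of 5.346, 2.933 and 1.148 in the WT pools, 31.33 in pool 740 and 0.6511 in pool 2445, with highest fibres at 333.1, 93.94, 4.671, 4852 and 336.5 CPM. The endothelial sum of 6 genes reached 86.7 CPM in pool 740 and at most 5.511 CPM elsewhere, and none of the 4 haemoglobin genes had a count in any fibre. Medians of Myh4 in the same pools were 68860, 61410, 67740, 71980 and 69960 CPM. The part of the other cells in the minor heavy chain values was not tested.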

How the data were processed

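RNA of 47 single EDL fibres was sequenced. The authors deposited raw counts per gene, 1 table per fibre, made with HISAT2 2.0.5 and featureCounts 1.5.2 on mm10 (read pairs over exons, strand option 2, reads that map to several places left out). The library kit and its strandedness are not given in the sources used here. Gene counts ran from 7648762 to 14606631 per fibre, and intervals and limits cover counting error only. Per fibre, CPM, TPM and shares of the 9-gene sum were computed. Genotypes were compared over 5 pools with edgeR 4.0.16 in R 4.3.3 (quasi-likelihood test, TMM, filterByExpr, Benjamini-Hochberg over all genes; called where the adjusted p was under 0.05 and the fold over 1.5), and shares with an exact two-sided permutation test over the 10 relabellings of the pools. limma-voom 3.58.1, DESeq2 1.42.0, other size factors, no filter, each pool left out, fibres as samples, run or sex-linked kind as covariate were alternatives. Coding sequences (GENCODE vM21 transcripts, the longest coding one per gene) were aligned with biopython 1.88. Upstream sequences of all 9 members were matched in the RefSeq table of GRCm38. The members, the 7 lists and the rule for named genes were chosen with earlier results of these data known. Named were all members, called list genes, the extremes of each list among genes of at least 10 CPM, and the 5 genes most like Myh4, Myh1 and Myh2. A list gene that this rule names is not reported here. The list genes Mymk and Mymx are Tmem8c and Gm7325 in the tables. Genes named outside the rule were chosen after their values were seen.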

Additional observations from a re-analysis of the deposited data

Results flagged for a closer look

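Single fibres that stood apart from the other fibres of their pool were sought for 7 members in 5 pools. Of 35 groups tested 6 had such a fibre, and chance flags about 1 in 20 groups. WT replicate 13 of pool 2 was flagged as low for 3 genes. It had 28820 CPM of Myh4 (nearest fibre 54700), 47.36 CPM of Myh1 (nearest 140.2) and 51.7 CPM of Myh2 (nearest 154.8). The same fibre was the lowest of its pool in Myh8 (66.16 CPM) and Myh13 (1.275 CPM) without being flagged there. The 9 genes together took 2.899% of its counts. It was also the WT fibre with the highest Actc1, at 1234 CPM. WT replicate 8 of pool 1 had 49070 CPM of Myh4 (nearest 62650). C2KO replicate 8 of pool 2445 had 333.6 CPM of Myh1 (nearest 185.8), which is the highest Myh1 value of all fibres. WT replicate 14 of pool 1 had 3.447 CPM of Myh3 (nearest 1.448).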

How the results depend on the processing

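No member was called in the fits on pools, and the p-values of the shares could not reach 0.05. Called genes numbered 6, and 11 without the filter on low counts, 218 with DESeq2, 485 with the 47 fibres as samples, 35 with run as a covariate, 21 with sex-linked kind as a covariate, 2 without the WT fibre lowest in Myh4 (an alternative chosen after seeing the data), and 1 to 358 with a pool left out, 358 being without pool 2445. With fibres as samples, whose p-values are too small because fibres share mice, Myh2 (-0.66, edgeR adjusted p = 0.00033) and Myh13 (-1.28, edgeR adjusted p = 0.000205) passed, and Myh3 did not pass the filter. Run as a covariate turned the direction of Myh1 (0.64), Myh8 (0.50) and Myh4 (-0.051) and moved Myh7b from -0.01 to -0.61, which did not pass. Leaving out a pool gave -0.38 to 0.078 for Myh1 and -0.067 to 0.06 for Myh7b, on both sides of 0. In run 0092 alone the differences of shares, C2KO minus WT, were -0.202 points for Myh4, 0.124 for Myh1, 0.093 for Myh8, 0.093 for the developmental and -0.0904 for the adult fast chains, opposite to the pools, and 0.0 for Myh6 and Myh7, which had 0 counts there. In fibres with Xist counts alone the Myh7 difference was 4.66e-06 points. The causes were not tested. The other 205 values under an alternative were alike. Fold changes among them kept their direction and side of the threshold, and shares kept their direction, with no threshold compared. Called genes numbered 6 with other size factors and 8 with limma-voom. Depth limits Myh3, Myh6 and Myh7, at a few counts a fibre. No paired analysis was possible because the labels give no replicate numbers, and those used here name fibres in accession order and tie no WT fibre to a C2KO fibre.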
